A study of Mus musculus with 16 samples.

Results

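H3K27ac was compared between P199L-ERG and WT-ERG lines of ER-Hoxb8 cells over all 114597 regions that the authors merged from their H3K27ac peaks, out of 348079 merged regions in the tables of 5 histone marks. Every H3K27ac region was taken. Genes were then described where the overlapping H3K9ac and H3K4me3 regions moved the same way as H3K27ac, because the H3K27ac ratio of this pair followed base composition. ER-Hoxb8 cells are mouse granulocyte-monocyte progenitors of C57BL/6 origin, held immature by an estrogen-dependent Hoxb8 and kept in medium with SCF and beta-estradiol. All 3 lines carried a lentiviral construct and were grown undifferentiated. They expressed human P199L-ERG, in which 1 proline of the protein is a leucine, human WT-ERG or an empty vector. Each line gave 1 ChIP-seq library per mark, so no difference below has a replicate check and no p-value is given. Brackets give 95% Clopper-Pearson intervals from the raw counts, which reflect counting error alone. All cells of the line were pooled in each library, so a smaller share of cells with a mark and less of it per cell cannot be told apart.

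Acetylation of histone H3 at lysine 27 marks active promoters and enhancers and is written by p300 and CBP. H3K9ac is a further acetylation of active promoters, and H3K4me3 is a methylation laid down around start sites. ERG belongs to the ETS transcription factors, binds GGAA core motifs and acts in blood stem cells, and HDAC3 is the deacetylase of the NCoR co-repressor complex. The study uses P199L-ERG as a variant with a weaker contact to that complex. The question asked of these libraries is where acetylation differs between a line with the variant and a line with the intact protein.

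The libraries held 13980539 H3K27ac reads inside the regions for P199L-ERG, 16230439 for WT-ERG and 15697084 for the empty vector. For H3K9ac the 3 libraries had between 10268618 and 10992315 reads in regions, and for H3K4me3 between 19834069 and 22278560. As a check of the labelled cell type, an H3K4me3 region covered the start of 10 of 12 myeloid progenitor genes, including Mpo and Kit but not Elane and Prtn3. The same held for 4 of 14 genes of other blood cells (Cd79a, Pf4, Gp9 and Cpa3) and for 0 of 3 endothelial genes. Summed over the list, H3K4me3 at the starts of the other blood cell genes was 1430.2 normalized reads in P199L-ERG, 1077 in WT-ERG and 862 in the empty vector, against 42114, 46973 and 47999 for the progenitor genes in the same order of lines. Cpa3, a mast cell protease, made up this order on its own, at 969, 498 and 276, while Cd79a, Pf4 and Gp9 were lowest in P199L-ERG. The part of other blood cells in the results below was not tested.

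The promoters of 6 genes described below are shown so that their base composition can be read directly. At all of them but Ubtd2 most of the H3K27ac behind the ratio lies in regions outside the window. In P199L-ERG the region over the window held 416 of 1730 normalized reads at Ly6c2, 414 of 1662 at Fcnb and 474 of 1018 at Cd53. Each is a RefSeq window of 300 bases (GRCm38.p6, 250 bases before to 50 after the start), written 5′ to 3′ along the gene. Capitals mark the letters AGGAAG on either strand, which hold the core of ETS motifs and flanks that ETS factors favour. CGGAAG, searched in the same way, is in none of these windows. The first 4 belong to genes whose 3 marks moved together, namely Ly6c2 (chr15:75111888-75112187, minus strand, GC 49.7%), Ly6g (chr15:75155011-75155310, plus, 48.7%), Fcnb (chr2:28084829-28085128, minus, 55.0%) and Bcl11a (chr11:24080445-24080744, plus, 63.0%). The last pair, Cd53 (chr3:106790100-106790399, minus, 46.3%) and Ubtd2 (chr11:32455120-32455419, plus, 81.0%), belong to genes with large H3K27ac ratios and flat H3K9ac.
Ly6c2: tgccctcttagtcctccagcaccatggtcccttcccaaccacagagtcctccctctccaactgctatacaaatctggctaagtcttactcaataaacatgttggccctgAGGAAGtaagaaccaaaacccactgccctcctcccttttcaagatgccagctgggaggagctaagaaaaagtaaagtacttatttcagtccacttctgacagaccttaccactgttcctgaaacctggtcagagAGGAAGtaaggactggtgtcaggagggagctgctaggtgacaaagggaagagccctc
Ly6g: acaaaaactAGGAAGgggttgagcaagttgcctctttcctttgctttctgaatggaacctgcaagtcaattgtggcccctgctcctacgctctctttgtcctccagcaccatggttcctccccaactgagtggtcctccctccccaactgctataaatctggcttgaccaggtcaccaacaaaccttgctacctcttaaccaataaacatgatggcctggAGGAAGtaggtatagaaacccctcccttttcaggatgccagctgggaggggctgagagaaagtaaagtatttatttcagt
Fcnb: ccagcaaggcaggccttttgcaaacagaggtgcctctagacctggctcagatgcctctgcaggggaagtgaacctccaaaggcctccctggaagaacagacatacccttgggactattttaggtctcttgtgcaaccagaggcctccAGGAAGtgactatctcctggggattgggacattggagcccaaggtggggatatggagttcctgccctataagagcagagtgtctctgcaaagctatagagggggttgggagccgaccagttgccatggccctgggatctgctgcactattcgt
Bcl11a: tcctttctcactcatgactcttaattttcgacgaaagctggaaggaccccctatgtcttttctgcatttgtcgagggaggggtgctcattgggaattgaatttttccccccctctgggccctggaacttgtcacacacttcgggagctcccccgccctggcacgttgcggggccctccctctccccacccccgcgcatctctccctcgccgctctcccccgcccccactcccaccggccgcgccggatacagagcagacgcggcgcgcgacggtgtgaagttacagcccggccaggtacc
Cd53: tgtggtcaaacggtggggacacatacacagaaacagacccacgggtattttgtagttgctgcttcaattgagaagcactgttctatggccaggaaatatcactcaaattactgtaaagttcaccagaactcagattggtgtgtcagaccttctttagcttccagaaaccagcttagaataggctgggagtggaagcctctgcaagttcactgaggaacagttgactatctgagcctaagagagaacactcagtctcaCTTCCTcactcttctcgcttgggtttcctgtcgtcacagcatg
Ubtd2: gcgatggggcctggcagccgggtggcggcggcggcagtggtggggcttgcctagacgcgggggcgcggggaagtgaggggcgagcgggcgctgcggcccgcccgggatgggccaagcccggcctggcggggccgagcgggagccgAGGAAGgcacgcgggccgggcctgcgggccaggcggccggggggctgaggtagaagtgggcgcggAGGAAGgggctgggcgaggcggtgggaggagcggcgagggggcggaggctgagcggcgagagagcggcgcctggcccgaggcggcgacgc
The Ubtd2 window holds 41 CG dinucleotides and the Bcl11a window 23, against 4 for Cd53, 2 for Fcnb, 1 for Ly6g and 0 for Ly6c2. AGGAAG occurs 2 times each in the Ly6c2, Ly6g and Ubtd2 windows, once each in those of Fcnb and Cd53, and 0 times in that of Bcl11a. Ly6c2 and Ly6g, neighbours of 1 gene family, share a run of 18 bases (gtcctccagcaccatggt) inside these windows. How far uniquely aligned reads could be placed among the members of this family was not tested.

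Over all regions, the P199L-ERG and WT-ERG libraries differed widely in both directions. H3K27ac was at least 1.5-fold higher in P199L-ERG at 38328 regions (33.4%) and at least 1.5-fold lower at 35993 (31.4%), with a median log2 ratio of -0.01 and quartiles of -0.77 and 0.92. Scaling each library to its reads in regions, in place of the authors' factor, turned this split into 47361 higher and 24245 lower regions. That scaling raised the median log2 ratio of the genes measured below by 0.32 for H3K27ac, 0.03 for H3K9ac and 0.25 for H3K4me3, and ratios are best read relative to these shifts.

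The sign of the ratio followed GC content. In the tenth of regions with the lowest GC content (median 41.9%) the median log2 ratio was 1.58, and 87.6% of regions were higher and 1.68% lower in P199L-ERG. In the tenth with the highest (62.4%) it was -1.19, with 0.236% higher and 90.7% lower. The groups between fell in order, with medians of 0.17 and -0.10 in the fifth and sixth groups, at GC contents of 50.9% and 52.5%. Across the 37898 promoter-like regions, those that overlapped both an H3K9ac and an H3K4me3 region, Spearman's rho between the ratio and GC content was -0.84 for H3K27ac, -0.55 for H3K4me3 and -0.20 for H3K9ac. Regions of 1 library share its depth and base composition, so these are descriptions across regions and not independent replicates. Why the H3K27ac ratio followed GC content was not tested, and with 1 library a side a library effect and a difference between lines cannot be told apart.

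**Figure D1:**
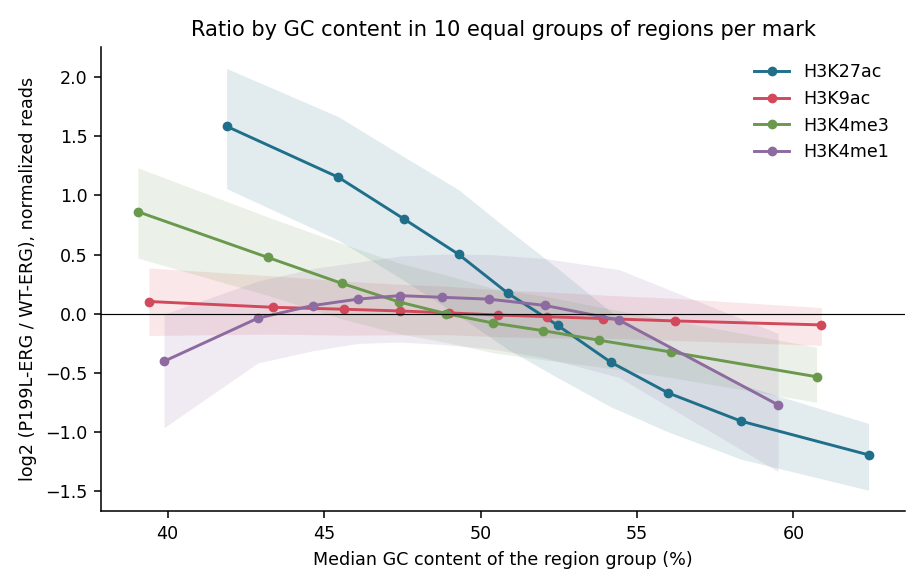
Median log2 ratio of P199L-ERG over WT-ERG normalized reads (y) against the median GC content in percent (x) of 10 equal groups of regions, for 4 marks, with bands from the lower to the upper quartile. The H3K27ac line falls with GC content through medians of 1.58 and -1.19 in the outer groups, while the H3K9ac line stays near 0.

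Peak calls showed the same split. The authors called 50675 regions in both lines, 27667 in P199L-ERG but not WT-ERG and 27650 in WT-ERG but not P199L-ERG. The P199L-ERG calls had a median GC content of 47.0% and the WT-ERG calls 56.9%. Regions centred within 1 kb of a start site, 12318 in number with a median GC content of 55.8%, had a median log2 ratio of -0.77. When ratios were centred on each of 20 classes of GC content, split further into 10 classes of signal, this left 21687 regions higher and 19928 lower, and the median of the tenth with the lowest GC content was then 0.22 and that of the highest -0.08. Values after this step are called GC-centred below.

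Among promoter-like regions the other marks followed H3K27ac unequally. Of 12888 regions higher in H3K27ac in P199L-ERG, 47.4% were also higher in H3K4me3 by at least 0.32 on the log2 scale, the limit used for both other marks, against 22.1% of all 37898, and 14.5% in H3K9ac, against 9.06% of all. Of 11122 lower regions, 57.4% were also lower in H3K4me3, against 27.7% of all, and 9.24% in H3K9ac, against 8.94% of all. As deposited, a drop in H3K27ac was thus matched in H3K9ac about as often as in any region. GC-centred, 15% of 3873 lower regions were also lower in H3K9ac, against 9.34% of all, and 13.9% of 5688 higher regions also higher, against 8% of all. Requiring all 3 marks left 1196 regions higher (3.16%) and 676 lower (1.78%), and with every mark GC-centred 372 and 200. Of these, 310 higher and 92 lower regions were in both counts.

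For genes, H3K27ac was summed over the promoter-like regions that the authors assigned to the gene, and H3K9ac and H3K4me3 over the regions overlapping them. Promoter-like describes the overlap of marks, and an assigned region can lie far from the gene, so the sum need not cover its promoter. The summed regions of Khdc1b lay 169116 to 561470 bases from its start, and those of Prl2c3 221855 to 224730. At Perp the distances were 47301 to 164625 bases and at Far2 58270 to 64525. Where a region was assigned to both of its neighbours it entered both sums, so adjacent genes are not independent. Of 15478 genes with an H3K27ac region, 14329 had a promoter-like one, and 12263 had at least 200 reads over both libraries in each of the 3 marks, while 2066 fell below that minimum. Over the 12263 genes the median log2 ratio was -0.46 for H3K27ac, -0.04 for H3K9ac and -0.23 for H3K4me3. H3K27ac was 1.5-fold higher in P199L-ERG at 835 genes (6.81%) and lower at 4954 (40.4%), and GC-centred at 190 (1.55%) and 343 (2.8%). Past the log2 limit of 0.32, H3K9ac was higher at 66 genes (0.538%) and lower at 104 (0.848%), and H3K4me3 higher at 570 (4.65%) and lower at 4140 (33.8%). All 3 marks were higher at 22 genes (0.179%) and lower at 43 genes (0.351%), which form 39 loci once genes sharing most of their signal are joined. With every mark GC-centred the counts were 9 (0.0734%) and 3 (0.0245%).

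Just inside and outside the limits, Il1rn was counted as higher with an H3K9ac log2 ratio of 0.33 and Hamp was not with 0.31, while Foxa3 was counted as lower with -0.32386 and Pds5b was not with -0.32179, the limit being 0.3219 either way. H3K9ac was the mark that decided each of these.

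**Figure D2:**
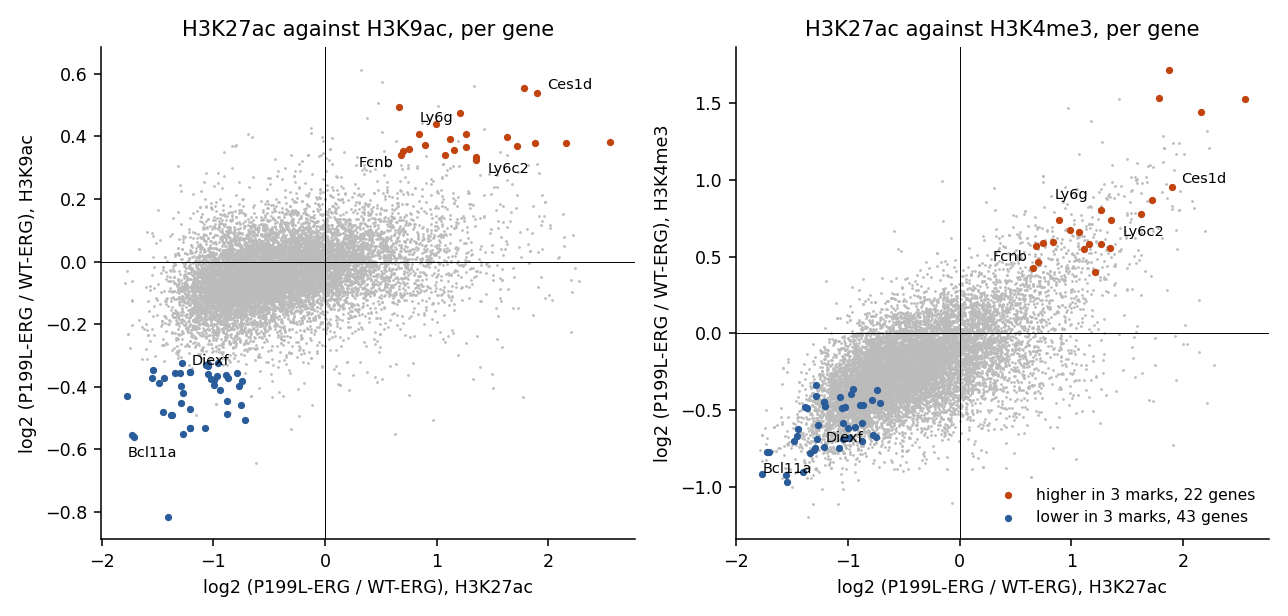
Each point is 1 of 12263 genes, with the H3K27ac log2 ratio of P199L-ERG over WT-ERG on x and that of H3K9ac (left) or H3K4me3 (right) on y. The 22 genes higher and 43 genes lower in 3 marks are coloured, and the 6 named are those whose calls held after centring for GC content.

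All 3 marks were higher in P199L-ERG at 4 genes both as deposited and GC-centred, and 3 of these are genes of differentiating myeloid cells. Of the 4, Ces1d alone was also called when only regions assigned to 1 gene were summed. Ly6c2 then had an H3K9ac log2 ratio of 0.30, Fcnb had 0.3216 and Ly6g had no such region. With a minimum of 500 reads in each mark, Ly6c2, Ly6g and Fcnb kept the call and Ces1d lost it. None of the 4 thus kept it under both settings. Ly6c2 (chromosome 15, 75108161 to 75112066) encodes the Ly6C antigen of monocytes. Its H3K27ac sum was 1730.5 normalized reads in P199L-ERG, 676 in WT-ERG and 1121 in the empty vector, from 5 regions. H3K9ac was 1169.7, 928 and 1386, and H3K4me3 1340.1, 802 and 1629, in the same order. WT-ERG was lowest of the 3 lines in each mark, while P199L-ERG was above the empty vector in H3K27ac only. The log2 ratio of P199L-ERG over WT-ERG was 1.35 (1.23 to 1.49) in H3K27ac and 1.07 GC-centred. It was 0.33 (0.21 to 0.46) in H3K9ac and 0.74 in H3K4me3. The region over its promoter (75110685 to 75112134) had 416, 191 and 279 normalized H3K27ac reads and a log2 ratio of 1.11, close to its GC-centred value of 1.06.

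Ly6g (chromosome 15, 75155261 to 75159128), the neutrophil antigen of the same family, had H3K27ac of 730.3 in P199L-ERG, 302 in WT-ERG and 569.9 in the empty vector, with a log2 ratio of 1.27 (1.08 to 1.47; 1.11 GC-centred). H3K9ac was 457, 344 and 635, and H3K4me3 454, 259 and 738. P199L-ERG thus lay above WT-ERG in all 3 marks and below the empty vector in H3K9ac and H3K4me3. Both regions assigned to Ly6g are also among the 5 of Ly6c2 and lie between the genes, and no promoter-like region covers the printed Ly6g window, so the pair is not 2 separate results.

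Fcnb (chromosome 2, 28076479 to 28084910) encodes ficolin-B, a lectin of myeloid progenitors that starts complement activation. Its H3K27ac was 1662 in P199L-ERG, 986 in WT-ERG and 2322 in the empty vector, H3K9ac 667, 519 and 1090.0, and H3K4me3 594, 393 and 887. The order of the lines was the same in each mark, with WT-ERG lowest and the empty vector highest. The log2 ratio of P199L-ERG over WT-ERG was 0.75 (0.64 to 0.87) in H3K27ac, 0.36 (0.20 to 0.53) in H3K9ac and 0.59 in H3K4me3. With a GC content of 51.1% over its 8 regions, the highest of the 22 genes, its GC-centred H3K27ac ratio was 0.91, larger than the deposited one. H3K4me1, a mark the choice did not use, kept the order, at 3232 normalized reads in P199L-ERG, 2618 in WT-ERG and 4838 in the empty vector.

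Ces1d (chromosome 8, 93166072 to 93197804), a carboxylesterase that hydrolyses lipid esters, had H3K27ac of 233 in P199L-ERG, 60.7 in WT-ERG and 129 in the empty vector, with a log2 ratio of 1.90 (1.52 to 2.37; 1.34 GC-centred). H3K9ac was 175, 119 and 253, and H3K4me3 435, 223 and 562. WT-ERG was again lowest in each mark. The gene belongs to a cluster of close relatives, so its reads may be split among them.

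All 3 marks were lower at 2 genes both as deposited and GC-centred. Bcl11a (chromosome 11, 24076564 to 24173558) encodes a zinc-finger repressor needed for B lymphoid development and known for silencing fetal globin in human red cells. Its H3K27ac was 327 in P199L-ERG, 1089 in WT-ERG and 639 in the empty vector, H3K9ac 672, 989 and 815, and H3K4me3 3149, 5387 and 4182. The lines were in 1 order in each mark, P199L-ERG lowest and WT-ERG highest. The log2 ratio was -1.73 (-1.91 to -1.56) in H3K27ac, -0.56 in H3K9ac and -0.77 in H3K4me3. All 9 of its promoter-like regions were lower in P199L-ERG, with log2 ratios between -0.94 and -2.15. At a GC content of 61.6%, its GC-centred ratios were -0.59 in H3K27ac and -0.33 in H3K4me3, each just past its limit. The region over the printed window, one of the smaller ones, had 12.4 normalized H3K27ac reads in P199L-ERG, 38.1 in WT-ERG and 16.1 in the empty vector. The noncoding A830031A19Rik, which shares all 6 of its regions with Bcl11a, adds no separate locus.

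Diexf (named Utp25 in RefSeq, a ribosome assembly factor) had H3K27ac of 155 in P199L-ERG, 385 in WT-ERG and 438 in the empty vector, H3K9ac of 217, 279 and 428, and H3K4me3 of 886, 1505 and 1352. Its H3K27ac log2 ratio was -1.30 and -0.62 GC-centred. Here P199L-ERG was lowest in each mark, but WT-ERG lay between the other lines in both acetylation marks.

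**Figure D3:**
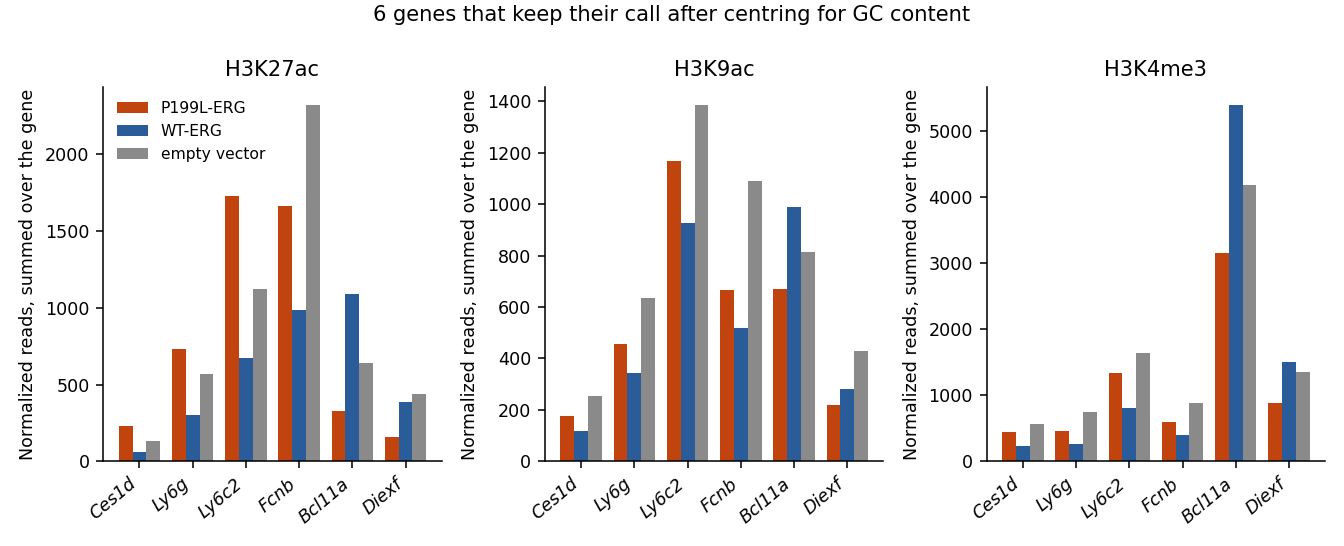
Bars give normalized reads summed over each of 6 genes (y) in P199L-ERG, WT-ERG and empty vector, 1 panel per mark and 1 library per bar. WT-ERG is the lowest bar at Ces1d, Ly6g, Ly6c2 and Fcnb in each mark and the highest at Bcl11a.

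The other 18 genes higher in 3 marks lost the call when the marks were GC-centred, although 14 of them, with the 4 above 18 of 22, kept a ratio above 0 in all 3. Among them were 3 C-type lectin receptors of myeloid cells from 1 cluster on chromosome 6. Clec4n, the fungal mannan receptor Dectin-2, had H3K27ac of 471 in P199L-ERG, 104 in WT-ERG and 155 in the empty vector, and a log2 ratio of 2.16 (0.67 GC-centred). Clec4a2, an inhibitory receptor, had 809.7, 219 and 404, and 1.88 (0.70 GC-centred). Clec4b2 had 735, 212 and 322, and 1.78 (0.57 GC-centred). H3K27ac was highest in P199L-ERG and lowest in WT-ERG at each. Clec4b2 shares 5 regions with Clec4a2 and 3 with Clec4n, and paralogs of this cluster may split reads.

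Further along the higher set, Far2, a fatty acyl-CoA reductase, had H3K27ac of 532 in P199L-ERG, 171 in WT-ERG and 339 in the empty vector (log2 ratio 1.63, 0.51 GC-centred). Khdc1b, a KH-domain gene with close paralogs, had the largest H3K27ac ratio of all measured genes at 2.55, with 222, 36.0 and 49.4, and 1.02 GC-centred. None of the regions summed for Khdc1b lies nearer than 169116 bases to its start. Kcnk18, a potassium channel, had 511, 323 and 215 (0.66, 0.47 GC-centred), and Phyhipl 366, 168 and 310.2 (1.11, 0.39 GC-centred). Kcnk18 thus had its lowest value in the empty vector, unlike Far2, Khdc1b and Phyhipl. Perp, a p53 target of desmosomes, had 0.08 GC-centred against 1.21 as deposited. For Map3k19, a kinase, the ratio of 0.99 turned to -0.10, and for Prl2c3, a prolactin relative, 0.84 turned to -0.20. Ccl6, a myeloid chemokine, and Il1rn, the antagonist of the interleukin-1 receptor, were also in the set, at 1826 and 567 normalized H3K27ac reads in P199L-ERG, 818 and 221 in WT-ERG, and 758 and 317 in the empty vector. Mterf1b, Cpa6, Mgp, Cldn10, Enpp1 and Fam124b made up the rest.

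The 43 lower genes were of mixed function, and 30 of them kept a ratio below 0 in all 3 marks when GC-centred. Scarf1, a scavenger receptor, was the only gene past 1.5-fold in each mark in either direction, with H3K27ac of 73.7 in P199L-ERG, 198.5 in WT-ERG and 191 in the empty vector and log2 ratios of -1.40, -0.82 in H3K9ac and -0.90 in H3K4me3. At a GC content of 63.9% its GC-centred H3K27ac ratio was -0.14. Ralgds, an exchange factor for Ral, had 481, 1118 and 455 (-1.21, -0.46 GC-centred), and Mrc2, a collagen receptor, shared with March10 1 region of 119, 277 and 74.7 (-1.21, -0.86 GC-centred). WT-ERG was highest at these 2 loci, and the other lines were close to each other at Ralgds.

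Tnfrsf25, a death receptor (-1.45), Tcaim, a mitochondrial protein (-1.38), Abi2, an adaptor of actin assembly (-1.37) and Akap17b, a kinase anchor (-1.27), had GC-centred H3K27ac ratios of -0.17, -0.11, -0.09 and 0.00. Their regions had GC contents of 63.8% to 70.1%. Tex22 had -1.08 (-0.10 GC-centred), while Tpm4, a tropomyosin, and Vdr, the vitamin D receptor, had -0.75 and -0.71 (-0.50 and -0.29 GC-centred). Their regions did not move alike in H3K27ac. The Tpm4 sum joined a region over its start at -1.86 with regions at 0.59 and 0.11. The Vdr sum joined regions at -1.19 and -1.08 near its start with 1 at -0.12, 58758 bases away. Among those not named by rank, chosen here for known roles after their values were seen, were the Notch effector Hey1, the BMP mediator Smad1, the Groucho co-repressor Tle1, the pseudokinase Trib2 and the leukocyte protease Mmp25. Tle1 had H3K27ac of 530.2 in P199L-ERG, 1488 in WT-ERG and 1109 in the empty vector, and Hey1 280.4, 559.6 and 348.

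**Figure D4:**
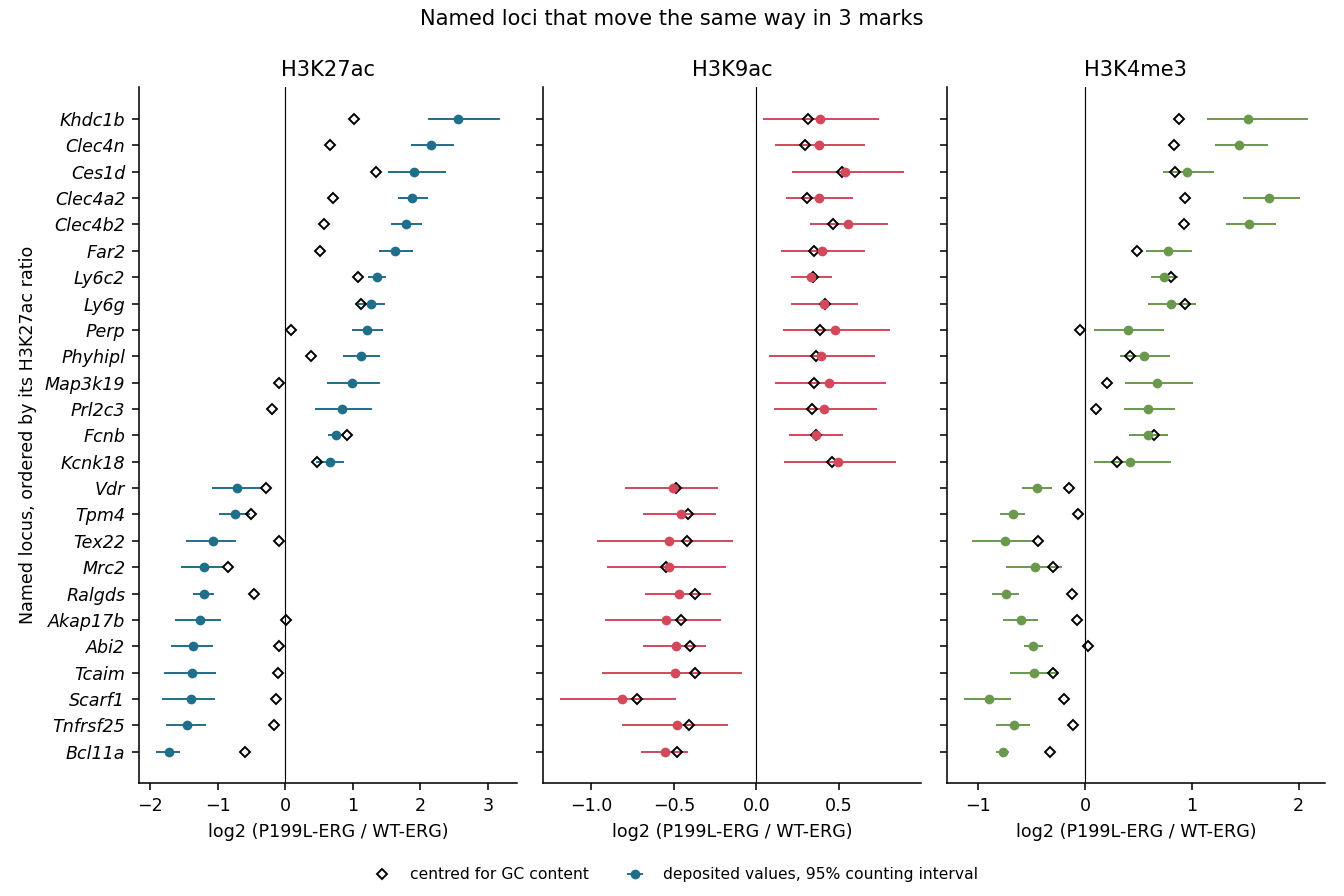
Log2 ratios of P199L-ERG over WT-ERG (x) for 25 named loci (y) in 3 marks. Filled points are deposited values with 95% counting intervals and open diamonds are GC-centred values; H3K27ac diamonds lie nearer 0 than the points for all loci but Fcnb, and H3K9ac diamonds lie close to their points.

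GC content, which the choice of genes did not use but the H3K27ac ratio followed, separated the sets. The 22 higher genes had a median GC content of 45.2% (39.4% to 51.1%) and the 43 lower genes 60.8% (53.9% to 71.1%), against 52.9% over all measured genes. GC-centring left their median H3K27ac log2 ratios at 0.49 for the higher set, against 1.24 as deposited, and at -0.26 for the lower set, against -1.21. For H3K4me3 the medians were 0.40 against 0.67 and -0.20 against -0.61, and for H3K9ac 0.33 against 0.38 and -0.34 against -0.39. H3K9ac thus moved least, and the centred H3K4me3 median of the lower set was inside the limit.

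H3K4me1, a mark of enhancers and promoter flanks, had a median log2 ratio of -0.03 at the 22 higher genes, with 4 past the log2 limit of 0.32 upwards, beside 6.71% of 11863 genes, and 1 past it downwards. The median of those 11863 genes was -0.05. At the lower genes its median was -0.44, and 26 of the 40 with H3K4me1 were past the limit downwards, against 2299 of 11863 (19.4%). The GC-centred median was -0.22, and H3K4me1 regions in the tenth with the highest GC content (59.5%) had a median of -0.77, so the share over all genes is not taken at like GC content. H3K27me3, the Polycomb mark, had an overlapping region at 0 higher and 12 lower genes, with a median log2 ratio of 0.19 there and 0.08 over 1029 genes. H3K27me3 libraries held 768125 to 980145 reads in regions, far fewer than the others.

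The empty vector library was also outside the choice. Set side by side, and sharing that library, the median H3K27ac log2 ratio of the higher genes was 0.93 for P199L-ERG over empty vector and -0.47 for WT-ERG over empty vector, and that of the lower genes was -1.003 and 0.17, beside -0.54 and -0.14 over all measured genes. In H3K9ac the higher genes had 0.16 and -0.26, and the lower genes -0.35 and 0.04, beside -0.21 and -0.17 over all. WT-ERG was the lowest of the 3 lines in all 3 marks at 12 of the 22 higher genes, beside 408 of all 12263 (3.33%), and the highest at 22 of the 43 lower genes, beside 368 (3%). P199L-ERG was the highest in all 3 marks at 13 of the 22, beside 456 (3.72%). It was the lowest at 32 of the 43 lower genes, but also at 5908 of all measured genes (48.2%). Since the choice already set the order of WT-ERG and P199L-ERG, these shares describe only where the empty vector lay.

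Several of the largest H3K27ac ratios did not carry H3K9ac with them. Cd53, a tetraspanin of leukocytes, had H3K27ac of 1018 in P199L-ERG, 217 in WT-ERG and 275 in the empty vector, a log2 ratio of 2.22 (2.02 to 2.45) and 0.70 GC-centred. Its H3K9ac was 1346, 1269.7 and 1106, a ratio of 0.08, and its H3K4me3 2515, 1007 and 1028. The region over the printed Cd53 window had 474 normalized H3K27ac reads in P199L-ERG, 95.7 in WT-ERG and 108.004 in the empty vector. H3K27ac and H3K4me3 at Cd53 were thus highest in P199L-ERG, and H3K9ac was flat between P199L-ERG and WT-ERG by the choice. Rpl27-ps3 (2.28), Nme8 (2.24), Shh (2.21) and the unnamed ENSMUSG00000109903 (2.20) also had H3K9ac ratios under 1.1-fold, at GC contents of 39.7% to 42.8%. At Shh, a secreted signal, the summed H3K4me3 ratio was -0.45, but it differed by region. H3K4me3 ratios were 0.92 and 0.97 at the regions with the most H3K27ac, 217 and 139 normalized reads in P199L-ERG. The ratio was -0.51 at regions with 24.9 and 14.4 such reads. The regions assigned to Shh lie 90374 to 148831 bases from its start. On the other side, Ubtd2 had H3K27ac of 52.6 in P199L-ERG, 179 in WT-ERG and 179 in the empty vector (-1.72), with an H3K9ac ratio of -0.06 at a GC content of 75.8%. Tmem243 (-1.79), E2f5 (-1.77), Mdfic (-1.73) and Tsnax (-1.73) also had flat H3K9ac, at 64.0% to 72.4%. H3K4me3 was lower past its limit at each of these and at Ubtd2, with ratios from -0.68 to -0.83. Their GC-centred H3K27ac ratios were -0.46 to -0.52. In H3K27ac, WT-ERG was also below the empty vector at E2f5 (214 against 296), Tmem243 (269 against 330) and Tsnax (237 against 311). At Mdfic it was not (475 against 445).

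Clec12a, an inhibitory lectin receptor that the study draws, stood between these cases. Its H3K27ac over 13 regions was 2437 in P199L-ERG, 819 in WT-ERG and 1146 in the empty vector, a log2 ratio of 1.57 (1.46 to 1.69; 0.43 GC-centred). H3K4me3 was 1394, 685 and 951, a ratio of 1.02. H3K9ac was 1768, 1557 and 1678, a log2 ratio of 0.18, which is under the limit, so the gene is not among the 22. WT-ERG was lowest of the lines in each mark.

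Several gene lists of myeloid cells had higher H3K27ac ratios than the measured genes as a whole, though not those lists alone. The median log2 ratio was 0.63 for 34 myeloid surface receptor genes, 0.40 for 23 late neutrophil genes, 0.26 for 14 primary granule genes and 0.25 for 24 monocyte and macrophage genes, beside -0.46 over all. At 1.5-fold, 18 of 34, 10 of 23, 4 of 14 and 10 of 24 were higher, and 0, 0, 0 and 3 lower, beside 6.81% and 40.4% of all. When GC-centred, only 6, 1, 2 and 2 were higher and 0 lower in each list, beside 1.55% and 2.8% of all. GC-centred medians stayed above 0, at 0.18, 0.25, 0.26 and 0.16. H3K9ac medians were between -0.01 and 0.05 and those of H3K4me3 between 0.02 and 0.26. Phagocyte oxidase and degranulation genes had -0.10 as deposited, 0.22 GC-centred and 0.22 when scaled to reads in regions, so their sign depends on the scale. All measured genes had -0.46, -0.001 and -0.14 on these scales, below the list on each. Mast cell, basophil and eosinophil genes had 0.38 over 12 genes (0.12 GC-centred) and endothelial genes 0.33 over 10 (0.03 GC-centred), as high as some lists above. The 23 transcription factors of the myeloid lineage had -0.36 (0.03 GC-centred), with 3 higher, 3 lower and 13 lower in H3K4me3, beside 33.8% of all.

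S100a8, a calcium-binding protein that neutrophils make in bulk, had H3K27ac of 1494 in P199L-ERG, 585 in WT-ERG and 525 in the empty vector, a log2 ratio of 1.35 (0.57 GC-centred). H3K4me3 had a ratio of 0.89 and H3K9ac of -0.04. S100a9, its partner, had 827, 330.2 and 278 (1.32, 0.25 GC-centred; H3K9ac -0.07). The chemokine receptor Ccr2 had 3307, 936 and 1026 (1.82, 0.47 GC-centred; H3K9ac 0.06), and Cd84, a SLAM receptor, 820.3, 216 and 203 (1.91, 0.72 GC-centred; H3K9ac 0.15). At S100a8, S100a9, Ccr2 and Cd84 WT-ERG and the empty vector were close to each other and P199L-ERG stood above both in H3K27ac, with little change in H3K9ac. Ngp, a secondary granule protein, had 751, 424 and 516 (0.82, 0.53 GC-centred) with H3K9ac at 0.30. The formyl peptide receptor Fpr1 ran against itself, at 1.77 in H3K27ac and -0.43 in H3K9ac.

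Primary granule genes differed among themselves. H3K27ac was 7204 in P199L-ERG, 8175 in WT-ERG and 7311 in the empty vector at Mpo, the myeloperoxidase (-0.18), 1152, 1216 and 1401 at Elane, the neutrophil elastase (-0.08), and 2912, 1966 and 2081 at Ctsg, cathepsin G (0.57, just under the limit, and -0.08 GC-centred). Cst7, a protease inhibitor of granules, had 3233, 1623 and 1624 (0.99, 0.77 GC-centred), with H3K9ac at 0.03. WT-ERG was lowest in all 3 marks at 7 of 34 surface receptor genes, 5 of 24 monocyte genes, 3 of 14 primary granule genes and 3 of 23 late neutrophil genes, beside 3.33% of all genes. It was also lowest at 3 of 9 erythroid genes and 0 of 21 stem and progenitor genes. WT-ERG was highest in all 3 marks at 3 of the 23 late neutrophil genes, 5 of 23 myeloid lineage factors and 3 of the 21 stem and progenitor genes, beside 3% of all. These counts moved when GC-centred. The lowest counts were then 8, 5, 2, 4, 1 and 0 in the order of lists above, beside 4.71% of all. The highest counts were 0, 2 and 3, beside 3.51%.

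Lists of general regulators ran below the median of all genes as deposited and near 0 once GC-centred. The SWI/SNF complex had a median of -0.89 over 14 genes (-0.05 GC-centred), the NCoR-HDAC3 complex -0.70 over 10 genes (0.09 GC-centred), and acetyltransferases, deacetylases and acetyl readers -0.69 over 29 genes (-0.03 GC-centred). The sign for the NCoR-HDAC3 complex therefore turned with the centring. Ncor1, its scaffold, had H3K27ac of 2128 in P199L-ERG, 3761 in WT-ERG and 4465 in the empty vector (-0.82, -0.12 GC-centred), and Hdac3 itself 405, 513 and 454 (-0.34, 0.71 GC-centred). Their H3K9ac ratios were -0.01 and -0.02. Housekeeping genes had -0.51 (-0.06 GC-centred) and cell cycle genes -0.47 (0.05 GC-centred).

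Stem and progenitor genes had a median of -0.02 over 21 genes and 0.01 GC-centred, and the 7 stem cell factors of the heptad -0.06 and 0.00. Scaled to reads in regions they were at 0.30 and 0.26, so the sign of neither list holds across scales. All measured genes moved with them, from -0.46 as deposited to -0.14. Both lists thus lay above all genes on these scales, and GC-centred they were close to all genes (-0.001). The endogenous Erg locus had H3K27ac of 12951 in P199L-ERG, 8199 in WT-ERG and 9453 in the empty vector, a log2 ratio of 0.66 (0.20 GC-centred), with H3K9ac at 0.02. Gata2 had 7611, 11494 and 7216 (-0.59, -0.03 GC-centred), and Kit 4385, 3482 and 3415 (0.33, 0.06 GC-centred).

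**Figure D5:**
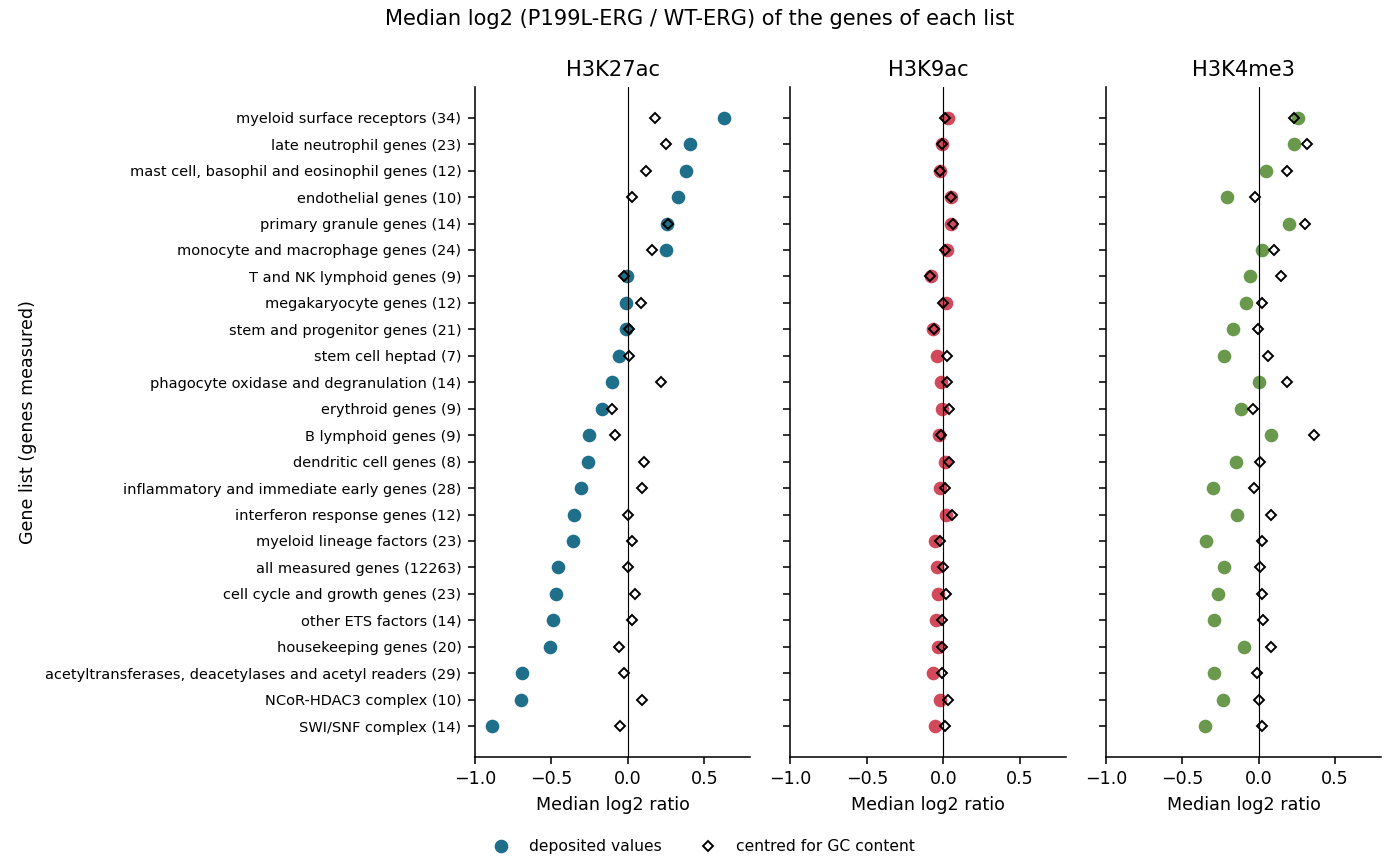
Median log2 ratio of P199L-ERG over WT-ERG (x) over the measured genes of each list (y, with their number), for H3K27ac, H3K9ac and H3K4me3, as deposited (filled) and GC-centred (open). H3K27ac medians run between -0.89 and 0.63 as deposited, and H3K9ac medians stay near 0 for every list.

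Distal regions were looked at after the values above were known. Among 12961 H3K27ac regions that overlapped an H3K9ac but no H3K4me3 region, 1384 had at least 100 reads over both libraries in each acetylation mark. H3K27ac was 1.5-fold higher in P199L-ERG at 565 of them (40.8%) and lower at 113 (8.16%), and together with H3K9ac past the log2 limit of 0.32 at 128 (9.25%) and 20 (1.45%), with 35 and 3 also called in GC-centred values. A region between Fbp1 and Fancc (chr13:62948912-62951088) had H3K27ac of 333 in P199L-ERG, 113 in WT-ERG and 140.2 in the empty vector and H3K9ac of 86.3, 44.8 and 30.9, log2 ratios of 1.54 and 0.90, while H3K4me1 was -0.32. A region between Kcnj15 and Erg (chr16:95387757-95390587) had H3K27ac of 511, 204 and 282 normalized reads, with log2 ratios of 1.32 in H3K27ac, 0.66 in H3K9ac and 0.68 in H3K4me1. Near Rhob (chr12:8428197-8432938) the ratios were 1.09 and 0.63, and 0.88 and 0.60 GC-centred. Over the 127 higher regions with H3K4me1, that mark was past the log2 limit the same way at 13 and against at 17, with a median of 0.04, and over the 20 lower ones at 3 and 1. All 1382 measured distal regions with H3K4me1 also had a median of 0.04, and their shares past the limit are not given here. On the lower side, a region between Mcfd2 and Socs5 (chr17:87202401-87203654) had H3K27ac of 240.2 in P199L-ERG, 413 in WT-ERG and 299 in the empty vector, log2 ratios of -0.78 and -0.82 in the acetylation marks and -0.52 in H3K4me1.

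ETS-type letters were counted on both strands in RefSeq promoter windows, and GAGGAAGT contains AGGAAG. Of the 22 higher genes 16 had 22 windows, and of the 43 lower genes 29 had 38. AGGAAG was in 54.5% of the higher windows and 28.9% of the lower windows, beside 35.4% of all 32817. GAGGAAGT was in 4 of 22 and 0 of 38 windows, beside 3.2% of all, and CGGAAG in 4.55% and 21.1%, beside 16.9%. The printed windows of the related Ly6c2 and Ly6g, genes with 2 RefSeq promoters each, both hold GAGGAAGT, so these windows are not independent. The median GC content was 49.2% for the higher windows and 63.3% for the lower ones, beside 52.7% of all, so these shares are not at like GC content. Over the regions, AGGAAG was in 39.1% of the central 300 bases of the 1196 higher ones and 28.1% of the 676 lower ones, beside 37.8% of all 37898. In the fourth to sixth GC groups these shares were 41.5% of 188, 37.3% of 59 and 43% of 10986 windows, so the lower set was closer to all regions at like GC content and the higher set was on the other side of them. GAGGAAGT was in 6.91%, 1.69% and 3.89% of these windows, and CGGAAG in 4.79%, 5.08% and 11.3%. TGTGGT, the core letters of RUNX motifs, were in 24.5%, 27.1% and 23.3% of the same windows.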

How the data were processed

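ChIP-seq of 5 histone marks was done in 3 lines of ER-Hoxb8 cells; 15 libraries have columns in the tables, and the pooled IgG control was not analysed here. Per the labels and the study's methods, the authors trimmed reads with cutadapt, dropped those under 30 nucleotides, used Bowtie for unique alignments to mm10 and MACS2 for peaks, then merged peaks by mark and took neighbouring genes from GREAT. The deposited read counts per region are whole numbers. The authors' normalized reads, a signal not divided by length, equal the count times 1 constant per library, whose origin is not given in the sources used here. The deposited 0 or 1 value marks a peak call by the authors in that library. Whether duplicate reads were kept is not given either.

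Here, log2 ratios used normalized reads plus a pseudocount, set to 10% of the mark's median value (2.18 for H3K27ac). Limits were 1.5-fold for H3K27ac and 0.32 on the log2 scale for H3K9ac and H3K4me3, regions overlapped from 1 base, and genes needed 200 reads over both libraries in each mark. GC content came from the GRCm38 sequence, and GC-centring took the median deviation out of 20 GC groups crossed with 10 signal groups. It was tested on simulated counts, with changes placed only in genes with far more reads than the minimum, so this test does not cover genes near that minimum. Region coordinates are printed as the files give them. Promoters came from RefSeq (GRCm38.p6). Named genes were the 12 loci each way ranked by their weakest mark, up to 3 moving members of each list, Ly6c2 and Clec12a, and the 5 largest H3K27ac changes each way with H3K9ac under 1.1-fold; 1 of them is not reported here, and genes outside this are list members given as examples or were chosen after their values were seen. The rule for the members, and the gene lists, were chosen with earlier results of these data known, so they are no independent support. Alternatives covered scaling, pseudocount, read minimum, overlap, fold, GC-centring and gene assignment. Python 3.11.15, numpy 2.4.6, scipy 1.17.1, pandas 2.3.3, pysam 0.24.0 and matplotlib 3.10.9 were used.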

Additional observations from a re-analysis of the deposited data

How the results depend on the processing

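With 1 library per mark and line, no replicate could be left out. No paired analysis was possible because no line had more than 1 library per mark. Alternatives below give counts higher and then lower in P199L-ERG. For H3K27ac regions (38328 and 35993), GC-centring gave 21687 and 19928; dropping the 25% of regions with the lowest signal gave 24942 and 26482, and a 2-fold limit 26689 and 19216. For regions moving in 3 marks (1196 and 676), scaling to reads in regions gave 1886 and 285, GC-centring 372 and 200, and an overlap of 50% gave 736 and 597. For genes (22 and 43), scaling to reads in regions gave 53 and 18, GC-centring 9 and 3, no read minimum 110 and 177, a minimum of 500 reads 8 and 20, a limit for H3K9ac and H3K4me3 of 1.5-fold 0 and 1 (Scarf1), a limit of 1.1-fold 140 and 1003, and regions assigned to 1 gene only 5 and 62. Of these, Ccl6 and Ces1d were among the 22, so Ly6c2, Ly6g and Fcnb lost the call, and 25 were among the 43, with Bcl11a and Diexf. All 22 higher genes remained under scaling to reads in regions, and 18 of the 43 lower ones. GC-centring kept 4 and 2 of them, and an overlap of 50% kept 13 and 31. A pseudocount of 50% of the median kept 19 and 39. Among 40 named genes, GC-centring reversed Akap17b (0.0046), Map3k19 (-0.10) and Prl2c3 (-0.20) in H3K27ac and moved 35 others by more than their counting interval. Depth limits single ratios. At Khdc1b, with 278 H3K9ac reads over both libraries, the counting interval of that ratio, 0.04 to 0.75, crossed the log2 limit of 0.32. The H3K9ac intervals of the 4 higher genes kept by GC-centring crossed it too. They were 0.21 to 0.46 at Ly6c2, 0.21 to 0.61 at Ly6g, 0.20 to 0.53 at Fcnb and 0.21 to 0.89 at Ces1d. Those of Clec4b2 (0.33 to 0.80) and Bcl11a (-0.70 to -0.42) did not cross it.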

Other observations

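GC-centring also brought in 6 genes that the deposited values did not call. Chst13, a sulfotransferase, had H3K27ac of 1395 in P199L-ERG, 1005 in WT-ERG and 2558 in the empty vector, a log2 ratio of 0.47 and 0.90 GC-centred. Its neighbour BC048671 had 1241, 870.2 and 2043, and both had ratios of 0.45 to 0.58 in H3K9ac and H3K4me3. Plek2 (0.51, 0.81 GC-centred), Arrdc4 (0.64, 0.65) and Olfr338 (0.17, 0.62) were the other higher genes. Ctnnd1, p120 catenin, was the lower one (-0.12, -0.81).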
